A study of Mus musculus with 2 samples.

Results

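A small group of neutrophil-like cells was examined among bone marrow-derived monocytes (BMDMs) that had been placed in osteoclast (OC) induction medium. Members were chosen by their S100a8 and S100a9 transcripts, which together had to make up at least 5% of a cell's unique molecular identifiers (UMIs, 1 per captured mRNA molecule). The rule was applied to barcodes with at least 500 detected genes and at most 10% mitochondrial UMIs. It found 99 members among 11932 kept cells, 16 in the control library and 83 in the mutant library.

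Single-cell mRNA sequencing (scRNA-Seq) with 10x Genomics 3′ chemistry (v3.1) was used by the study to ask what the chromatin remodeler subunit ARID1A does in early osteoclastogenesis. Both cultures started from mouse femoral marrow and received M-CSF at 50 ng/ml with RANKL at 100 ng/ml, the pair of cytokines that drives myeloid cells toward OCs. One library was labelled CONTROL, with no further genotype, and the other LysM-Cre;Arid1afl/fl, called mutant here. Each group held 1 library, and the sex and number of the animals behind it were not given. Marrow was taken at 4 to 6 weeks of age by the general culture methods. LysM-Cre is driven from the lysozyme M (Lyz2) locus, which is active in monocytes, macrophages and granulocytes, so the floxed Arid1a allele could be recombined in any of these cells. A 3′ assay still counts transcripts of a recombined allele that keep their 3′ end.

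Neutrophils arise in the marrow from granulocyte-monocyte progenitors through promyelocyte, myelocyte and metamyelocyte stages. Azurophil granule proteins such as myeloperoxidase and neutrophil elastase are made first, specific granule proteins such as lactoferrin and cathelicidin next, and gelatinase granule proteins and chemotactic receptors last. S100A8 and S100A9 pair to form calprotectin, a calcium- and zinc-binding antimicrobial complex that is very abundant in neutrophil cytosol. M-CSF and RANKL sustain macrophages and OCs, whereas granulocytes depend mainly on G-CSF.

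S100a8 and S100a9 define the members, and Ngp and Camp were the specific granule genes with the highest levels in them. Elane and Prtn3 are azurophil genes that divided the members. The 5′ flanks of these 6 genes are shown. Each is the 250 bases before the start of the gene's canonical transcript in GENCODE M39, read 5′ to 3′ on the gene's strand from GRCm39. Capitals mark a match to the C/EBP letters TTGCNNAA (TTNNGCAA on the other strand) or to the PU.1 letters GAGGAAGT (ACTTCCTC on the other strand).
S100a8 (chr3:90576035-90576284, plus strand): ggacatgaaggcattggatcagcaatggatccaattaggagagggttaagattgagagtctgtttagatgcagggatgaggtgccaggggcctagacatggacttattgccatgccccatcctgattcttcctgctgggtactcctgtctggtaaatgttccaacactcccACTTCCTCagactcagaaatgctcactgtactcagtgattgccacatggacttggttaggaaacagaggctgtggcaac
S100a9 (chr3:90603072-90603321, minus strand): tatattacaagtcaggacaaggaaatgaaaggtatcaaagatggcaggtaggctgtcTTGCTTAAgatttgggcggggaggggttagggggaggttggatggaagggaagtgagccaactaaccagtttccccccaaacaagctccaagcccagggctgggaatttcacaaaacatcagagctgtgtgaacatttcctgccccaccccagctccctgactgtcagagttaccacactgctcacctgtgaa
Ngp (chr9:110248565-110248814, plus strand): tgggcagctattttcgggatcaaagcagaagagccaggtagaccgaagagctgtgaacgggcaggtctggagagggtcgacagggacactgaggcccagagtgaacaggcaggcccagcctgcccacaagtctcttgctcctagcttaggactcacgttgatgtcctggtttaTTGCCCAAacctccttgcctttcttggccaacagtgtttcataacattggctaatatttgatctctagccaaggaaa
Camp (chr9:109678686-109678935, minus strand): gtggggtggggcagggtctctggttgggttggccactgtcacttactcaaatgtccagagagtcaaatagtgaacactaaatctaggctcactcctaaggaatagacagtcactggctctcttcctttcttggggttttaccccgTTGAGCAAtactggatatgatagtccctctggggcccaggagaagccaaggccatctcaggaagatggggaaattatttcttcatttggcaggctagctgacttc
Elane (chr10:79721831-79722080, plus strand): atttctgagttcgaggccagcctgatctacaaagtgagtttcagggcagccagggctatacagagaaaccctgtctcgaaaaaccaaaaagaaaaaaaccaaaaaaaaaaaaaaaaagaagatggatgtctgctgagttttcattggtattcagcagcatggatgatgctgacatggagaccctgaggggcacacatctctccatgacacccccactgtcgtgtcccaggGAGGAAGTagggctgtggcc
Prtn3 (chr10:79715198-79715447, plus strand): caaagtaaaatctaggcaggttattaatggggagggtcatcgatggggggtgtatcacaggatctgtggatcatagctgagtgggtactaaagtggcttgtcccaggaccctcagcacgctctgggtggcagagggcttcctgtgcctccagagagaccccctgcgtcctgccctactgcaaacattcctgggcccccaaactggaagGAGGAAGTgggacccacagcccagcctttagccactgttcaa
S100a8 and S100a9 are neighbours on chromosome 3 and Prtn3 and Elane on chromosome 10, while Ngp, Camp and Ltf all lie on chromosome 9. The C/EBP letters occurred once each before S100a9, Ngp and Camp, and the PU.1 letters once each before S100a8, Elane and Prtn3. C/EBP and PU.1 are the factor families best known from granulocyte genes. Among 21770 such windows, 9.34% held the C/EBP letters and 2.08% the PU.1 letters. The C/EBP letters were found before 7 of 11 specific granule genes, 0 of 6 azurophil genes and 3 of 18 macrophage genes. The PU.1 letters were found before 2, 3 and 1 genes of the same lists. A match describes these letters alone and says nothing on binding.

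Members were 0.255% of kept control cells (16 of 6269, 0.146 to 0.414%) and 1.47% of kept mutant cells (83 of 5663, 1.17 to 1.81%). The difference was 1.21 percentage points (0.874 to 1.58). All ranges in parentheses are 95% intervals, exact binomial (Clopper-Pearson) for shares and exact Poisson for levels. That of the difference takes the root of the summed squares of the distances to the limits of both shares. These intervals cover counting error alone. Since each group is a single library, the spread between cultures is unknown, so the difference belongs to these libraries and no p-value is given.

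The libraries held 164004706 control and 131800059 mutant UMIs, and 8 barcodes occurred in both, none of them a member. Arid1a served as the check of the labels. Among all other cells it stood at 51.9 counts per 1000000 UMIs (CPM, 50.8 to 53.0) in control and at 20.2 CPM (19.4 to 21.0) in mutant cells. Members were shallower than other cells, with median UMIs of 6885.5 against 24031 for control cells and 9433 against 21863 for mutant cells. A doublet caller run on each library marked 0 control and 7 mutant members, which were kept. The filters left out 186 control and 202 mutant barcodes, of which 0 passed the 5% rule.

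S100a8 and S100a9 chose the cells, so their values only describe the rule. The pair made up a median of 30.05% of UMIs in control members (lowest 5.87%, highest 42.5%) and 30.4% in mutant members (lowest 5.10%, highest 42.1%). Of all kept cells, 6239 control and 5553 mutant cells were under 0.1%, and 3 control and 6 mutant cells lay between 1 and 5%. Among members, 1 control and 13 mutant cells lay between 5 and 10%, and 2 and 6 between 10 and 20%. Cells thus lay on both sides of the threshold without a clear gap in the mutant library. Just inside the threshold the members had 5.10, 5.45, 5.87, 6.47 and 6.91%, and just outside it cells had 4.71, 4.53, 3.92, 3.099 and 2.86%. The transcripts were near parity in members, with 0.867 S100a8 UMIs for each S100a9 UMI in control members and 0.991 in mutant members. In other cells under 0.1% the same ratio was 12.5 (10.6 to 14.8) and 5.40 (4.94 to 5.91).

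**Figure D1:**
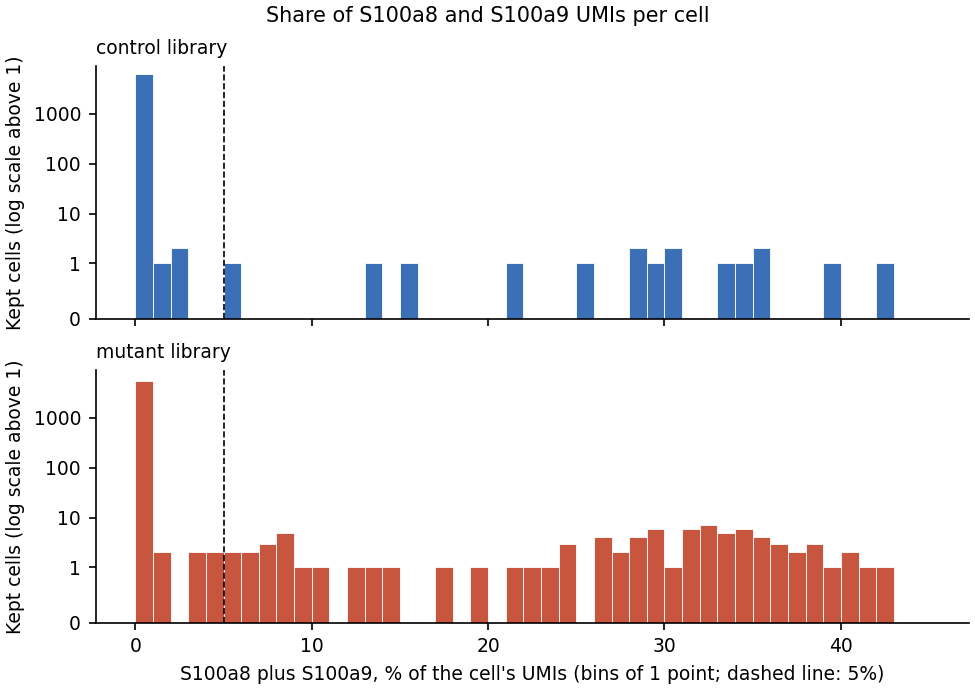
Number of kept cells (y axis, log scale above 1) by the share of S100a8 plus S100a9 in the cell's UMIs (x axis, percent, bins of 1 point) in the control library (upper panel) and the mutant library (lower panel). The dashed line is the 5% rule. The bulk of cells sits in the lowest bin, 9 cells lie between 1 and 5%, and most members lie above 20%.

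The label was set beside Ngp, Camp and Ltf, specific granule genes that the rule did not use. They were listed as markers of these cells with earlier results of these data known, so their levels are no independent check. Ngp, neutrophilic granule protein, stood at 31512 CPM (30556 to 32490) in control members and 23736 CPM (23423 to 24053) in mutant members. Control other cells had 4.68 CPM and mutant other cells 4.11 CPM. Camp, the cathelicidin precursor, had 14722 CPM and 10298 CPM in members against 0.208 CPM and 1.52 CPM in other cells. Ltf, which encodes the iron-binding lactoferrin, had 2796 CPM and 2592 CPM against 0.0734 CPM and 0.521 CPM. All 3 genes carried a UMI in 71 of 99 members, and 4 members had none of them. These are descriptions of cells of 1 library each, since a member is not a replicate of its condition. Choosing cells instead by Ngp, Camp, Ltf and Lcn2 at 1% or more of UMIs gave 14 control and 69 mutant cells. Of these, 13 and 67 were members, which is 81.25% and 80.7% of the members and 92.9% and 97.1% of the cells so chosen.

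Transcripts of Ngp were scarce in the rest of the culture. With every cell thinned to 2000 UMIs, Ngp was seen in 16 of 16 control members and 92.7% of mutant members, against 0.0809% and 0.295% of other cells. Thinning left out 1 mutant member and 76 control and 153 mutant other cells. Without thinning the shares were 100% and 94.0% of members and 0.672% and 1.86% of other cells. In the control library 95.2% of the 765 Ngp UMIs outside the members lay in 5 cells, and 688 of them in 1 cell. S100a8 and S100a9 made up 2.44% of that cell's UMIs, under the 5% rule, so the Ngp level of control other cells rests mostly on it. Without thinning, S100a8 was seen in 18.4% of control and 25.2% of mutant other cells, and S100a9 in 2.35% and 9.93%. Whether such UMIs were free RNA or the cells' own was not tested.

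Ratios below compare members with all other kept cells, both libraries pooled unless stated, and are given on the log2 scale with exact conditional 95% intervals. Because S100a8 and S100a9 held 25.01% of the control members' UMIs and 23.6% of the mutant members', every other gene is scaled down in members. Over the 5135 genes whose mean reached 20 CPM, the median was -0.43. It became -0.04 with S100a8 and S100a9 left out of the totals, and -0.13 with median-of-ratios scaling. Of these genes 531 were at least 2-fold higher in members (10.3%) and 1280 at least 2-fold lower (24.9%). The split was 828 higher and 691 lower with S100a8 and S100a9 left out, and 747 and 815 with median-of-ratios scaling. Lists are described by how many of their members passed 2-fold, read against these shares. S100a8 and S100a9 themselves have no ratio here.

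Specific granule genes were far higher in members. All but Mmp8 were nearly absent from other cells and passed the minimum through the members alone, so the count is a description. Of 10 listed genes over the minimum level, 9 were at least 2-fold higher and 0 lower, with a median log2 ratio of 12.24 (12.90 for control and 11.51 for mutant cells alone). The ratio of Camp was 13.75 (13.56 to 13.94) and that of Ltf 13.23 (12.91 to 13.57). Lcn2, which encodes the siderophore-binding lipocalin 2, stood at 9820 CPM in control and 8639 CPM in mutant members, with a ratio of 12.99 (12.83 to 13.16). Chil3, a chitinase-like secreted protein, had 8778 CPM and 8212 CPM and a ratio of 11.75 (11.64 to 11.87). Fcnb, a lectin of the complement pathway, had 1111 CPM and 778 CPM with a ratio of 11.97 (11.59 to 12.37). Cd177, a neutrophil surface glycoprotein, had 245 CPM and 273 CPM with a ratio of 12.03 (11.36 to 12.78). Olfm4, carried by a subset of neutrophils in the marrow, was limited to 2 control and 9 mutant members, and with 0 UMIs in other cells its ratio was at least 12.97. Mmp8, neutrophil collagenase, was the gene that did not pass, at 0.57 (0.19 to 0.92). It had 0 UMIs in control members and 70.5 CPM in mutant members, against 39.6 CPM and 44.2 CPM in other cells.

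Azurophil granule genes were also far higher in members, but were carried by fewer of them. Elane, neutrophil elastase, had 2397 CPM (2139 to 2678) in control and 2375 CPM (2276 to 2476) in mutant members, from 9 and 36 cells. Prtn3, proteinase 3, had 2329 CPM and 2343 CPM from 10 and 46 cells. Mpo, myeloperoxidase, had 414 CPM and 667 CPM from 3 and 20 cells, and Ctsg, cathepsin G, had 383 CPM and 529 CPM from 6 and 29 cells. Their ratios to other cells were 10.15, 9.74, 9.85 and 9.68, and that of Ms4a3, a surface marker of granulocyte-monocyte progenitors, was 10.67 (10.31 to 11.04). The list median was 9.79 over 6 genes, of which 5, again those that passed the minimum through members, were at least 2-fold higher. Ctsc, the protease that activates these enzymes and is also made by macrophages, was lower at -1.35 (-1.69 to -1.03). Prtn3 and Mpo overlap a gene on the opposite strand, and whether counting used the strand was not given in the sources used here.

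**Figure D2:**
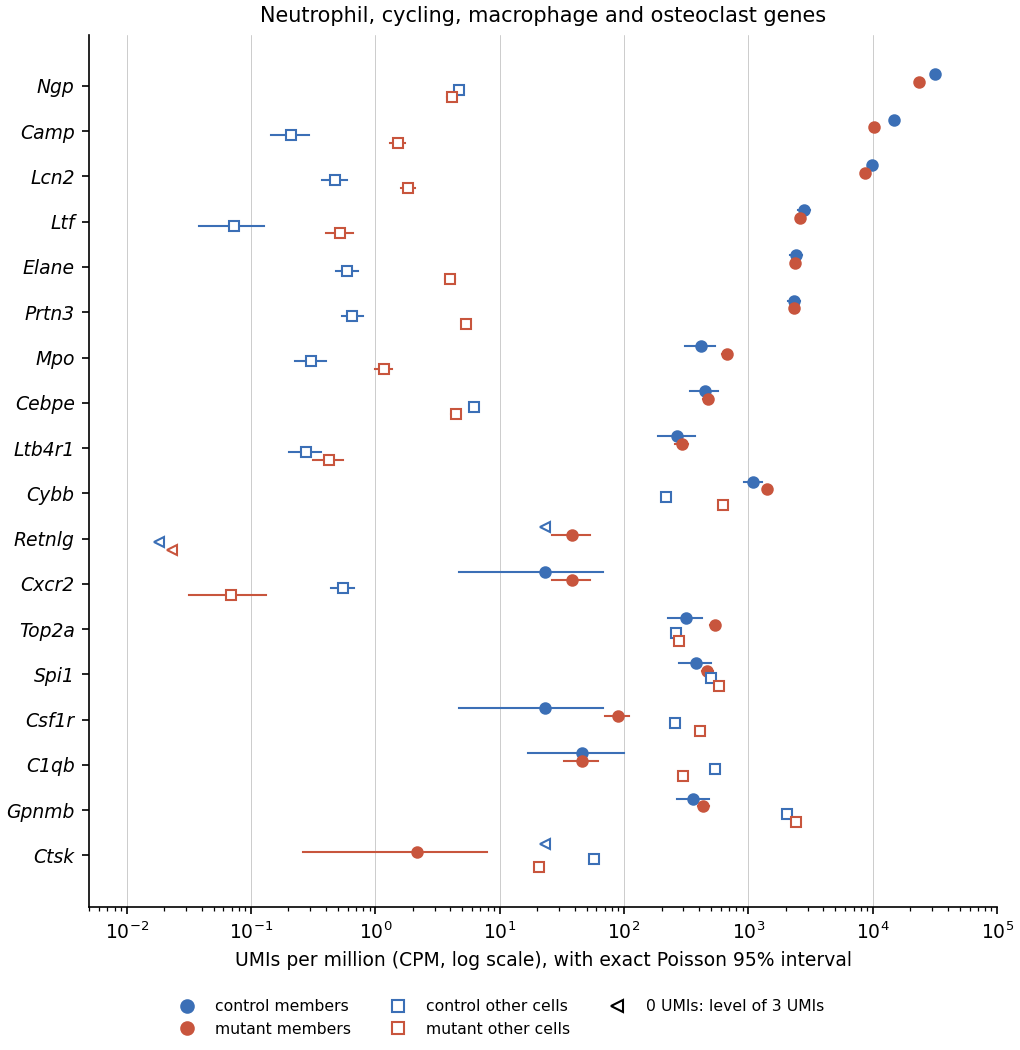
Level of 18 genes (y axis) in CPM (x axis, log scale) in members (filled circles) and all other kept cells (open squares) of the control and mutant libraries, with exact Poisson 95% intervals. A left-pointing triangle marks a gene with 0 UMIs, drawn at the level of 3 UMIs. Ngp to Ltb4r1 separate members from other cells by more than 10-fold in each library, Top2a and Spi1 differ by less than 2-fold, and Csf1r, C1qb and Gpnmb are lower in members.

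Outside the gene lists, 4 further genes were among the 15 highest. These were Chil1 at 13.38 (12.13 to 15.02), the secreted glycoprotein Lrg1 at 12.27 (11.49 to 13.16), the azurophil serine protease Prss57 at 11.85 (10.88 to 13.01) and the lipolysis inhibitor G0s2 at 11.17 (10.40 to 12.05). Wfdc21 and Pglyrp1, secreted neutrophil proteins of the late secretion list, stood at 12.73 (12.48 to 12.99) and 11.76 (11.53 to 11.995). Both overlap a gene on the opposite strand. Of the 6 genes of that list over the minimum, 4 were at least 2-fold higher and 1, the sheddase gene Adam8, was lower at -2.15 (-2.42 to -1.89), with a median of 3.52. By level, S100a9 and S100a8 held 12.03 and 11.72% of all member UMIs, and Ngp came next with 2.47%.

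Genes of late neutrophils were rare. Of 9 late neutrophil genes in the table only 3 reached the minimum level, of which 2 were at least 2-fold higher and 1 lower. Csf3r, the G-CSF receptor, had 45.96 CPM (16.9 to 100.0) in control and 77.0 CPM (60.1 to 97.1) in mutant members. Slpi, a secreted protease inhibitor, was higher at 2.15 (1.94 to 2.35), and Clec4d, a C-type lectin, lower at -2.13 (-2.35 to -1.92). Cxcr2, the chemokine receptor by which mature neutrophils leave the marrow, had 3 UMIs in control and 35 in mutant members, or 23.0 CPM and 37.9 CPM. Retnlg, a resistin-like protein of mature neutrophils, had 0 UMIs in control members and 35 in mutant members, of which 30 lay in 1 cell. Il1b had 0 and 1 UMI. Stfa1, a cysteine protease inhibitor, had 4 and 62 UMIs from 1 and 4 cells, and reads of the near-identical stefin A genes may be split among them.

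Receptors and adhesion molecules were mixed, with 8 of 18 genes over the minimum at least 2-fold higher and 4 lower. Ltb4r1, the leukotriene B4 receptor, had 268 CPM in control and 292 CPM in mutant members, from 16 and 76 cells, with a ratio of 9.73 (9.40 to 10.07). Itgb2l, an integrin beta chain, reached 13.80 (11.91 to 16.86) from 10 and 92 UMIs. Ly6g, the classical surface marker of mouse neutrophils, had 5 and 36 UMIs against 0 and 1 in other cells, a ratio of 13.48 (10.92 to 18.82). Trem3, an activating receptor, stood at 5.26 (5.04 to 5.47). Cxcr4, the receptor that retains immature neutrophils in the marrow, had 99.6 CPM and 93.2 CPM in members, and its ratio was 5.26 in the control but 2.04 for mutant cells, where other cells also carried more of it. The Fc receptor gene Fcgr3 and the integrin Itgb2 stood at 0.33 and 0.06.

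The NADPH oxidase makes the respiratory burst, and 3 of its 7 genes were at least 2-fold higher in members, with 0 lower. Within the control library alone 3 of 7 were higher, and within the mutant library alone 2 of 7, with 0 lower in each. Rac2, its GTPase in leukocytes, had 774 CPM in control and 883 CPM in mutant members and a ratio of 2.24 (2.14 to 2.33). The ratio of Cybb, the catalytic subunit, was 1.79 (1.71 to 1.86) and that of Ncf1, an organizer subunit, 1.46 (1.32 to 1.59). Cyba, the partner of Cybb, was at -0.23, and at 0.16 with S100a8 and S100a9 left out of the totals.

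Among transcription factors, Cebpe, required for specific granule genes, had 444 CPM (337 to 574) in control and 471 CPM (427 to 517) in mutant members, with a ratio of 6.43 (6.28 to 6.58). Cebpd was higher at 3.03 (2.84 to 3.20), and Lmo4 and Klf2 stood at 1.58 and 1.38. Gfi1, a repressor of monocyte genes in granulocyte precursors, had only 4 and 26 UMIs against 2 and 2 in other cells. Spi1, which encodes PU.1 in both lineages, was at -0.23, which changed sign to 0.16 with S100a8 and S100a9 left out. Of 7 monocyte and macrophage factors over the minimum 0 were higher and 5 at least 2-fold lower. Klf4 and Irf8 both had 0 UMIs in control members and 7 and 13 UMIs in mutant members, with ratios of -3.15 and -1.48. Without the macrophage-transcript members described below, 6 of the 7 were lower and their median moved from -1.48 to -4.54.

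Of the other S100 and annexin genes, 2 of 10 were at least 2-fold higher and 5 lower. S100a11 was higher at 1.65 (1.59 to 1.72). S100a4 and S100a10 were among the 15 lowest named genes, at -3.103 (-3.24 to -2.97) and -2.92 (-3.10 to -2.75). S100a6 stood at -1.38 (-1.45 to -1.31). Among inflammatory cytokines and chemokines, 1 of 10 genes over the minimum was at least 2-fold higher and 7 were lower, with a median of -1.90. The 1 higher gene was Ccl5, whose UMIs came almost wholly from 1 member. Without the macrophage-transcript members 0 were higher and 9 lower, with a median of -4.67. Among survival and apoptosis genes, 0 of 7 were higher and 3 lower, or 4 lower without those members.

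Markers of other cell types were then counted. Of 16 macrophage genes over the minimum, 15 were at least 2-fold lower in members and 0 higher, with a median of -1.97. Gpnmb, a lysosomal glycoprotein, had 360 CPM and 434 CPM in members against 2045 CPM and 2412 CPM in other cells. C1qb, of complement C1q, had 45.96 CPM and 45.5 CPM against 542 CPM and 297 CPM. Csf1r, the M-CSF receptor, had 23.0 CPM and 88.9 CPM against 256 CPM and 404 CPM. The 18 macrophage genes summed to 1785 CPM in control and 3984 CPM in mutant members, and 4 of them had 0 UMIs in control members. All 5 osteoclast genes over the minimum were at least 2-fold lower, with a median of -2.23 that was -4.33 without the macrophage-transcript members, and the 12 listed genes summed to 53.6 CPM and 115 CPM in members against 512 CPM and 349 CPM in other cells. Ctsk, the OC collagenase, had 0 and 2 UMIs in members. Genes outside the lists among the 15 lowest were Mmp12 at -4.32, Srm at -3.92, Npy at -3.01, Crip1 at -2.97 and Prdx1 at -2.73, with Akr1b8, Basp1, Slc25a4 and Mgst3.

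Ly6c2, a surface protein of classical monocytes and of myeloid progenitors, had 1884 CPM in control and 2152 CPM in mutant members, with a ratio of 8.98 (8.88 to 9.08). Plac8 stood at 6.64 (6.55 to 6.72), and its level in other cells differed between the libraries, 0.887 CPM against 31.2 CPM. Ms4a6c, the other monocyte gene over the minimum, was lower at -1.44 (-1.74 to -1.15), and Ccr2, the chemokine receptor of classical monocytes, had 0 UMIs in control and 7 in mutant members. Ighm, the IgM heavy chain, was the only B cell gene over the minimum, at 38.3 CPM and 48.8 CPM with a ratio of 4.94 (4.49 to 5.36). T and NK cell, erythroid and stromal markers all had 0 UMIs in members of both libraries. The eosinophil list had 42 UMIs, 31 of them Ear2, and the basophil and mast cell list 5.

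Cycling genes were present in most members. At least 0.1% of UMIs came from the 13 cycling genes in 10 of 16 control and 56 of 83 mutant members, and 2 and 11 members had none. Mki67, a marker of dividing cells, had 299 CPM (212 to 408) in control and 276 CPM (244 to 313) in mutant members, against 178 CPM and 103 CPM in other cells. Top2a, the topoisomerase of replicating cells, had 314 CPM (225 to 426) and 541 CPM (495 to 591) against 261 CPM and 275 CPM. Only Rrm2, a ribonucleotide reductase subunit, passed 2-fold, at 1.13 (0.91 to 1.35). The list median was 0.040, and 0.43 with S100a8 and S100a9 left out of the totals. The rest of the culture was itself rich in dividing cells, as 30.4% of control and 30.04% of mutant other cells carried Top2a at 2000 UMIs, next to 37.5% and 50.0% of members.

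A set of members carried macrophage transcripts as well. In 1 control and 13 mutant members the macrophage list made up at least 0.5% of UMIs, a threshold chosen after the values were seen. The highest member below it had 0.382% and the lowest above it 0.586%. These 14 cells had a median of 21147.5 UMIs, against 8616 in the other 85, and the S100 pair was under 15% of UMIs in 13 of them against 6 of the 85. At least 0.5% of UMIs came from the interferon-stimulated list in 13 of the 14 and in 14 of the 85, and 12 of the 14 had a UMI of an osteoclast gene. Without them the macrophage list summed to 644 CPM in control and 697 CPM in mutant members, all 16 genes over the minimum were at least 2-fold lower, and the median was -5.25. The doublet caller marked 7 members, all in the mutant library. With marked doublets removed from all cells, the macrophage median was -3.46. Beyond that caller, whether the 14 barcodes hold 1 or several cells was not tested. The list values that the 14 moved most are given with and without them.

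Members also differed in the balance of azurophil and specific granule genes. Among the 85 members below the macrophage threshold, 14 (3 control) had at least 1% of UMIs in Elane, Prtn3, Mpo, Ctsg and Ms4a3, 20 (5 control) had 0.1 to 1%, and 51 (7 control) had less. These are ranges of a continuous share set after the values were seen, with 3 cells between 0.8 and 1.2% and 1 between 0.08 and 0.12%. The median share of Ngp was 0.416% in the first range, 2.98% in the second and 4.03% in the third. Camp followed with medians of 0, 0.367 and 1.62%, and Ltf with 0, 0.0581 and 0.626%. Ly6c2 ran the other way at 0.527, 0.183 and 0.124%. Cebpe changed little, at 0.0454, 0.0535 and 0.0496%. The S100 pair itself had medians of 20.6, 31.3 and 33.3%, and the cycling list 0.170, 0.266 and 0.195%. Depth moved with the ranges, since median UMIs were 11260.5, 10217.5 and 7011, and its part in them was not tested. Both libraries contributed to each range.

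**Figure D3:**
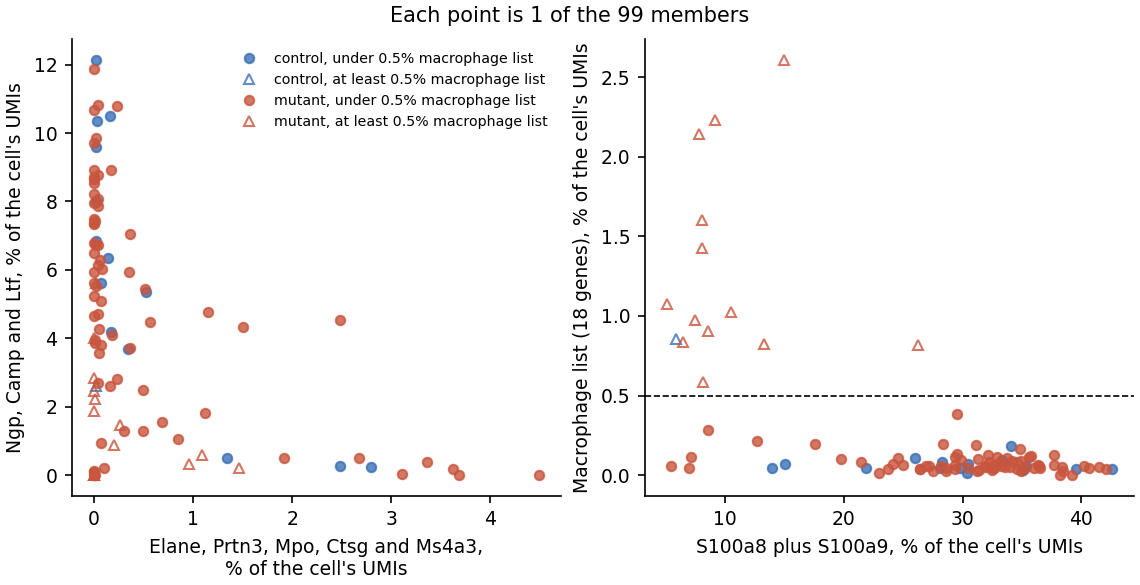
Each point is 1 of the 99 members. The left panel plots Ngp, Camp and Ltf (y axis) against Elane, Prtn3, Mpo, Ctsg and Ms4a3 (x axis) and the right panel the 18 macrophage genes (y axis) against S100a8 plus S100a9 (x axis), all as percent of the cell's UMIs, with triangles for members at or above 0.5% macrophage transcripts (dashed line). Cells with over 1% azurophil transcripts stay below 5% on the left y axis, where cells near 0 on the x axis reach 12%, and 13 of the 14 triangles lie below 15% S100 transcripts.

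The libraries were compared within members last. Of 1075 genes that averaged 100 CPM or more over control and mutant members, 46 were at least 2-fold higher in mutant members (4.28%) and 8 at least 2-fold lower (0.744%). The split was 31 and 18 without the 14 macrophage-transcript members, 29 and 20 with marked doublets removed, and 54 and 20 with members at 10% S100 or more. The neutrophil genes themselves were near level. The median log2 ratio of mutant over control members was -0.18 over 9 specific granule genes and 0.0090 over 5 azurophil genes, and Olfm4 was the only one past 2-fold, at -1.10 (-1.84 to -0.30).

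Against other cells, 0 of 26 interferon-stimulated genes were at least 2-fold higher in members and 3 were lower, with a median of -0.35 that was 0.043 with S100a8 and S100a9 left out of the totals. Because the libraries differed in these genes, the pooled values hide those within each library. There 14 of 26 were lower in control members (median -1.10) and 11 of 26 in mutant members (median -0.93). Of the 26 control values, 12 were bounds at 3 counts, so that median rests partly on the floor. Over all 5135 genes, 1719 were at least 2-fold lower in control and 1214 in mutant members. Without the macrophage-transcript members 18 of 26 were lower in the pooled cells, with a median of -1.30, next to 1802 of all 5135 genes. Between the libraries these genes stood apart. The 30 listed genes summed to 574 CPM in control and 5205 CPM in mutant members, or 206 CPM and 3002 CPM without the macrophage-transcript members. Only 5 of them reached the minimum, with a median ratio of 3.20 (3.18 without those members), and the median was 2.22 when genes of at least 20 CPM were taken. Isg15, Irf7 and Bst2 were below 100 CPM in control members and passed through the mutant members, so no count of higher genes is read from them. Ifi27l2a had 176 CPM (112 to 264) in control and 1622 CPM (1541 to 1706) in mutant members, a ratio of 3.20 (2.61 to 3.86). Isg15, a ubiquitin-like modifier, had 2 UMIs or 15.3 CPM against 278 UMIs or 301 CPM, a ratio of 4.30 (2.43 to 7.35). Irf7, a transcription factor that amplifies interferon production, had 1 UMI against 204, a ratio of 4.85 (2.36 to 10.16) that became at least 1.28 without the macrophage-transcript members. The ratios of Ly6e and Bst2, membrane proteins that restrict viruses, were 2.87 (2.18 to 3.65) and 2.61 (1.79 to 3.57). Ifitm3, B2m and H2-K1, outside the list, were higher too at 2.14, 1.79 and 2.00. At 2000 UMIs, Isg15 was seen in 0 of 16 control members, which at 3 counts allows up to 18.75% of cells with a UMI at that depth, and in 32.9% (22.9 to 44.2%) of mutant members. Without thinning these shares were 12.5 and 69.9%. Other cells had the same direction, with a median of 1.75 over these 5 genes, and carried more of them, Isg15 being at 161 CPM in control and 676 CPM in mutant other cells. Whether the shift in members differs from that in other cells was not tested. Ctsl, a lysosomal protease, had a ratio of 2.50 (1.91 to 3.14) that turned to -0.75 without the macrophage-transcript members.

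Arid1a, the targeted gene, stood at a like level in control and mutant members. Control members had 7 UMIs or 53.6 CPM (21.6 to 110), and mutant members 48 UMIs in 36 cells or 52.0 CPM (38.4 to 69.0), a ratio of -0.04 (-1.20 to 1.35). In the other cells the same ratio was -1.36 (-1.42 to -1.30). Within the mutant library members were therefore above other cells by 1.37 (0.92 to 1.78), whereas among control cells the value was 0.05 (-1.27 to 1.09). Without the macrophage-transcript members the mutant level was 54.7 CPM (38.3 to 75.7). At 2000 UMIs, 14.6% (7.80 to 24.2%) of mutant members and 4.496% (3.96 to 5.08%) of mutant other cells carried Arid1a, and 18.75% (4.05 to 45.6%) and 8.98% (8.28 to 9.73%) in the control library. Without thinning the shares were 43.4% of mutant members, 34.5% of mutant other cells, 37.5% of control members and 66.0% of control other cells, at unequal depths. In level and in the thinned share, mutant members were higher than mutant other cells beyond counting error, and were not distinguishable from control members at this depth. Recombined and intact transcripts cannot be told apart in these counts.

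Lyz2, the gene that carries the Cre, had 10999 CPM (10438 to 11583) in control and 4738 CPM (4599 to 4881) in mutant members, a ratio of -1.22 (-1.30 to -1.13). Other cells differed alike, at 10802 CPM and 5437 CPM or -0.99. Lyz2 overlaps a gene on the opposite strand. Other genes lower in mutant members by the same rule were Ndfip1 at -1.51, Klf7 and Mcm3 both at -1.26, Map2k2 at -1.18, mt-Co3 at -0.74 and Rplp0 at -0.70. The interval of Map2k2 reached 0.54 without the macrophage-transcript members, where its value was -0.56. Smarca4, the BAF ATPase, had 53.6 CPM in control and 60.7 CPM in mutant members, and Brd9, a subunit of the alternative ncBAF complex, 61.3 CPM and 61.8 CPM.

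**Figure D4:**
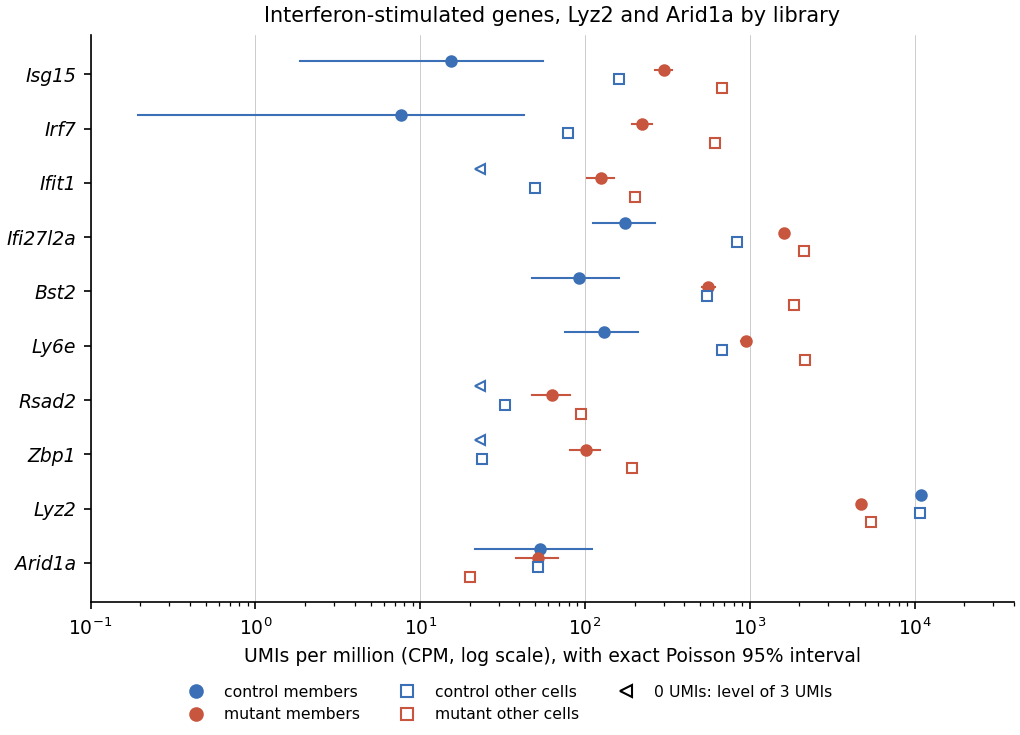
Level of 8 interferon-stimulated genes, Lyz2 and Arid1a (y axis) in CPM (x axis, log scale) in members (filled circles) and other cells (open squares) of each library, with exact Poisson 95% intervals and triangles at the level of 3 UMIs for genes with 0 UMIs. Interferon-stimulated genes lie to the right in the mutant library for members and other cells, Lyz2 to the left, and Arid1a is lower in mutant other cells (20.2 CPM) than in mutant members (52.0 CPM).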

How the data were processed

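The deposited values are raw UMI counts for 1 control and 1 mutant library. The authors produced them by Cell Ranger, whose version the headers give as 6.1.0. GRCm39 is named by the submitters. Strand use, gene annotation and whether aggregation preceded the deposited counts were not given in the sources used here. Of 32544 gene identifiers 31977 matched GENCODE M39, the source of all coordinates and sequences.

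UMIs were summed over members or other cells per library and scaled to CPM (Python 3.11.15, NumPy 2.4.6, SciPy 1.17.1). A gene with 0 UMIs was bounded at 3 counts. With 1 library per group no test was possible. Members and the 27 gene lists were chosen with earlier results of these data known. Outside the lists, the 15 highest and 15 lowest genes averaging 50 CPM or more with the same sign in both libraries were named, ranked by the interval bound nearest 0, and the 8 highest and 8 lowest between libraries at 100 CPM. A few genes that these rules name are not reported here. Doublets were scored by 2 simulated doublets per barcode among 50 neighbours (scikit-learn 1.9.0), taking 0.8% per 1000 barcodes (333 control and 275 mutant), and kept in the main analysis. The interval calculation was tested on simulated counts. Alternatives varied the threshold, filters, totals, weighting, thinning depth, doublets and, added after the data were seen, the macrophage-transcript members.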

Additional observations from a re-analysis of the deposited data

Results flagged for a closer look

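Of 163 listed genes over the minimum level, 5 lay on opposite sides of 0 in the control and mutant libraries with both 95% intervals (or the bound, for 0 UMIs) clear of 0, when members were compared with other cells. Other genes whose values differ in sign, such as Lyz2, have an interval or bound that reaches 0 in a library. None of these differences was tested, since each rests on 1 library per group. Mmp9, gelatinase B, had a log2 ratio of 3.31 (2.87 to 3.71) in the mutant library and -2.92 (-8.23 to -0.44) in the control, where members had 1 UMI, and other cells had 58.1 CPM in the control but 5.69 CPM in the mutant library. Mmp8 was at 0.67 (0.30 to 1.03) in the mutant library, and its 0 UMIs in control members put it at -0.78 or less. Ccl3, a chemokine, was at -1.33 in the mutant and 1.06 in the control library, from 20 and 13 UMIs. Fcgr3 was at -0.29 in the mutant and 0.95 in the control library. Ccl5, another chemokine, was at 1.00 in the mutant library, with 337 of its 357 UMIs in 1 member that carried macrophage transcripts, and at -5.41 without such members. Its 0 UMIs in control members put it at -0.69 or less.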

How the results depend on the processing

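No paired analysis was possible because each group holds 1 library. The share of cells that are members ranged from 0.223 to 0.287% in the control and from 1.22 to 1.54% in the mutant library over all thresholds and filters. Of 115 values of the main lists and shares under alternatives 78 moved by less than their interval, as did 113 of 156 for other lists and 2009 of 3040 for single genes, and 6 single genes changed sign.

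For members over other cells, the median log2 ratios of specific granule, azurophil, macrophage and interferon-stimulated genes were 12.24, 9.79, -1.97 and -0.35. In the control library alone they were 12.90, 11.89, -2.70 and -1.10. For the last, 12 of 26 values were bounds at 3 counts. The mutant library alone gave 11.51 for specific granule, 8.96 for azurophil and -0.93 for interferon-stimulated genes. Members at 2% S100 or more gave 12.89 and 10.59 for the granule lists, and members at 10% or more gave 11.08, 7.66, -3.53 and -1.30 for all 4 lists. Leaving S100a8 and S100a9 out of the totals gave 10.18 for azurophil, -1.58 for macrophage and 0.043 for interferon-stimulated genes, and median-of-ratios scaling 10.09 and -1.68 for the former pair. Equal weight per cell gave 11.97, 9.10, -2.74 and -0.79. Removing doublets gave 10.03 for azurophil, -3.46 for macrophage and -1.20 for interferon-stimulated genes. Leaving out the macrophage-transcript members gave -5.25 for macrophage and -1.30 for interferon-stimulated genes.

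For mutant over control members, the specific granule median of -0.18 became 0.022 at 2% and 0.016 at 10% S100, 0.024 without macrophage-transcript members and 0.087 with doublets removed. The azurophil median became -0.73 at 10% S100. The interferon-stimulated median became 4.03 with equal weight per cell and 2.22 with genes of at least 20 CPM. Arid1a was seen in 43.4% of mutant members without thinning, and Isg15 in 50.0% at 5000 UMIs and 69.9% without thinning.

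Ccl5 over other cells changed sign to -0.69 in the control library alone and -4.77 without macrophage-transcript members, and Ccl6 to 0.61 with equal weight per cell. Between libraries, Ctsl became -0.75 and Mcl1 -0.18 without macrophage-transcript members, Clec4d 0.66 at 10% S100 and Ctsb -0.21 with doublets removed. The cause of these changes was not tested. The 16 control members, with 130554 UMIs, limit every comparison between libraries, and a gene unseen in them could still be at 23.0 CPM.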
